A study of Mus musculus with 48 samples.

Results

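The genes described here are 37 interferon-stimulated genes, listed by symbol as genes that interferons are known to induce. The list uses no value of these libraries in its rule, though it was drawn up with earlier results of these data known. They were 37 of 34932 mouse genes with a transcript in the files, and all 37 were found. Of these, 29 are mainly induced by type I interferons (Ifit1, Ifit2, Ifit3, Isg15, Isg20, Irf7, Irf9, Mx1, Oas1a, Oas2, Oas3, Oasl1, Oasl2, Rsad2, Stat2, Usp18, Ifih1, Ddx58, Dhx58, Zbp1, Ifi44, Ifi35, Bst2, Rtp4, Xaf1, Trim34a, Parp14, Samd9l and Cmpk2) and are called type I-like. The other 8 are mainly induced by interferon gamma (Irf1, Irf8, Gbp2, Gbp3, Gbp5, Gbp7, Igtp and Irgm1) and are called gamma-like. Many genes of either set answer to both kinds of interferon.

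Type I interferons are made by many cells that sense foreign or misplaced nucleic acid. They signal through the receptor chains Ifnar1 and Ifnar2 and the kinases Jak1 and Tyk2 to a complex that includes Stat2 and Irf9 and binds the interferon-stimulated response element (ISRE). Interferon gamma is made mainly by T cells and natural killer cells and signals through Ifngr1 and Ifngr2 to the gamma-activated sequence (GAS). In tumors, interferons are known for raising antigen presentation and for shaping the activity of T cells and myeloid cells.

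Cells were sorted from subcutaneous tumors of B16F10, a mouse melanoma line of C57BL/6 origin, and from the inguinal lymph nodes that drained them. WT mice were compared with Yap-cKO mice, labelled CD4Cre Yap flox, which carry loxP-flanked Yap and a Cre transgene whose Cd4 promoter makes it cut Yap in developing T cells. Yap is a transcriptional co-activator of the Hippo pathway. Every mouse was C57BL/6J and carried a B16F10 tumor. The mice were young adults, and littermates served as controls. The Yap-cKO line also had an EYFP reporter behind a loxP-flanked stop, while the labels do not give the alleles of the WT mice. The sorted cells were CD4+ T cells (CD4), CD8+ T cells (CD8) and CD45+ CD4- CD8- cells (CD45), the last being the remaining leukocytes, in which Cd4-driven Cre is not expected to act on most cells. Tumor-infiltrating cells are called TILs, and cells of the tumor-draining lymph nodes TDLNs. The 3 cell types, 2 tissues and 2 genotypes made 12 groups of 4 libraries, 48 in all.

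The DNA before the transcription start of 5 members is shown first because these letters are where interferon signalling is known to reach the genes that the results turn on. RefSeq promoter windows on build GRCm38.p6 (250 bases before the start to 50 after it) were matched for 30 of the 37 members, the exceptions being Dhx58, Mx1, Oas2, Parp14, Rtp4, Usp18 and Zbp1. The letters gaaanngaaa, the core of the ISRE, and ttcnnngaa, the GAS, were searched on both strands, where n is any base. The 150 bases that end just before the start are printed 5′ to 3′ on the strand of the gene, and capitals mark every base inside a match to either motif.
Ifit1 (chr19:34640739-34640888, + strand): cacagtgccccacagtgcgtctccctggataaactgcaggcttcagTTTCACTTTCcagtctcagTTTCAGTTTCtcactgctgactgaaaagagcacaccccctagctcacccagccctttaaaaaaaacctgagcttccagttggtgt
Isg15 (chr4:156200819-156200968, - strand): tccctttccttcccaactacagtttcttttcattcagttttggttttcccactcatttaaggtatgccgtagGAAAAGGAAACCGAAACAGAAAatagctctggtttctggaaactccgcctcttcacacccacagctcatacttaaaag
Gbp2 (chr3:142620513-142620662, + strand): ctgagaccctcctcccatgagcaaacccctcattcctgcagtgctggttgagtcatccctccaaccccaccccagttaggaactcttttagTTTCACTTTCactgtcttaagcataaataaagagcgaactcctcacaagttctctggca
Igtp (chr11:58199406-58199555, + strand): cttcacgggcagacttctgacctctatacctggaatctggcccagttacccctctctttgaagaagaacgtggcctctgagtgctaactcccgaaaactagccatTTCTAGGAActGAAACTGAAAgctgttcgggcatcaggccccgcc
Irf1 (chr11:53769864-53770013, + strand): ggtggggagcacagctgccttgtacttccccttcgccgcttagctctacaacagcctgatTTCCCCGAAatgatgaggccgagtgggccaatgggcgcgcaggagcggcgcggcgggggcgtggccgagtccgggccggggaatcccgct
Ifit1 held a pair of ISRE matches, which began 104 and 85 bases before the start. Isg15 held 3 that overlapped one another, and Gbp2 held 1 that began 59 bases before the start. In Igtp a GAS match at 45 bases was followed after 2 bases by an ISRE match. Irf1 held a GAS match at 90 bases and no ISRE match, and a second start of Irf1 in the table had neither. An ISRE match was found in 17 of the 30 members with an entry (56.7%), against 3.99% of the 27025 genes in the table. A GAS match was found in 10 of 30 (33.3%), against 9.55%. Among the 22 type I-like members with an entry 11 held the ISRE and 5 the GAS, and among the 8 gamma-like members 6 held the ISRE and 5 the GAS. A match describes the letters and is not a measured binding site.

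Each library held 12656302 to 24213689 estimated counts on genes. Levels are given as CPM, each count relative to the library total after TMM scaling (a trimmed mean of log ratios) over the 48 libraries, and 3 counts were worth 0.124 to 0.237 CPM. The labels number the replicates but do not say that they came from separate animals, so a p-value measures the spread between these libraries, which may be technical. Yap1, the targeted gene, stood at 14.2 to 25.4 CPM in the 4 WT CD4 TIL libraries and at 1.7 to 5.7 in those of Yap-cKO. In CD8 TILs it stood at 12.6 to 25.2 CPM in WT and 2.43 to 6.48 in Yap-cKO, while in the TDLN libraries it was 1.1 to 4.36 CPM and the genotypes overlapped. In CD45 TILs Yap1 stood at 2.8 to 5.4 CPM in WT and at 1.48 to 2.09 in Yap-cKO, with no overlap, although this population is not the one that the Cre was made for. The count covers the whole gene and includes RNA from outside the deleted segment. Melanoma markers were higher in WT in the same TIL populations, as given below for T cells and at 1950 against 646 CPM on average in CD45 TILs. The part of tumor cell RNA in these Yap1 values was not tested. Libraries stood apart in ways that the groups carry. RNA of the Y-linked genes Ddx3y and Eif2s3y was above 5 CPM in 3 of 4 libraries of every WT group and in 0 libraries of any Yap-cKO group, so sex and genotype cannot be told apart except through WT replicate 4. The labelled cell types were present by their markers: the summed level of 15 T lineage genes was 10800 to 12600 CPM on average in the T cell groups of the nodes, and a list of 8 myeloid genes summed to 23800 and 27600 CPM in the CD45 TILs of Yap-cKO and WT mice. In T cell TILs of WT mice the T lineage sum was lower. It was 1890 to 7150 CPM in CD4 and 2320 to 6620 CPM in CD8, against 8230 to 12400 and 7900 to 8520 in Yap-cKO, with all 15 markers higher on average in Yap-cKO (ratio 1.93 in both, two-sided exact permutation p = 0.0286, the smallest that 4 against 4 can give, adjusted p = 0.129 over 54 comparisons). Melanoma markers (10 genes, among them Pmel and Mlana) summed to 6560 to 19600 CPM in WT CD4 TILs and 4440 to 15800 in WT CD8 TILs, against 258 to 3050 and 87.9 to 3130 in Yap-cKO. Endothelial markers (341 against 120 CPM on average in CD4 and 692 against 78.4 in CD8) and fibroblast markers (304 against 24.6 and 241 against 8.92) were likewise higher in WT. The CD45 populations differed in kind between tissues: 5 B cell genes summed to 7760 and 7440 CPM on average in WT and Yap-cKO TDLNs and to 1210 and 469 in TILs, and the myeloid genes to 1590 and 345 in TDLNs. In these bulk samples fewer cells of a type and less RNA per cell cannot be told apart.

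Levels of the interferon-stimulated genes differed by cell type and tissue. TPM, which corrects for length, allows members to be compared with one another. In the T cells of the nodes, Irf1, a transcription factor induced by interferon gamma and by T cell activation, was the most abundant of the 37 (429 to 609 TPM across the 4 group means), followed by Igtp, a GTPase that acts on vacuoles of intracellular pathogens (242 to 312 TPM). In the CD45 groups the most abundant was Irf8, a transcription factor of myeloid and B cells (363 to 451 TPM). Ifi44 had the lowest mean in 11 of the 12 groups (0.184 to 2.64 TPM). Between 0 and 3 members per group had a mean under 1 TPM, so nearly every member could be read in every group.

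Summed TPM of the 29 type I-like members was 802 to 901 on average in the 6 TDLN groups. It rose in CD45 TILs, where the 4 WT libraries held 1290, 1760, 1600 and 2620 and the 4 Yap-cKO libraries 3190, 2420, 1750 and 1540. The lowest of these 8 libraries was above the highest mean of any TDLN group. In CD4 TILs the sums were 530, 815, 1110 and 1390 in WT and 2270, 1970, 1230 and 1190 in Yap-cKO. In CD8 TILs they were 498, 848, 1040 and 918 in WT and 2480, 1390, 1300 and 1100 in Yap-cKO, so that every Yap-cKO library was above every WT library in CD8 and the genotypes overlapped in CD4. The gamma-like sum was lower in the tumor in WT T cells, going from 915 and 987 TPM on average in CD4 and CD8 TDLNs to 482 and 369 in TILs. Most of it in the nodes was Irf1 and Igtp (479 and 312 TPM in WT CD4, 609 and 242 in WT CD8). Over the 8 gamma-like members the median log2 fold change of tumor over node was 0.0066 in WT CD4, with 4 positive. In WT CD8 it was -0.51, with 2 positive. Yap-cKO CD45 TILs had the highest mean CPM of the 12 groups for 23 of the 37 members, Yap-cKO CD4 TILs for 5 and WT CD45 TILs for 4. When the 12 groups were ordered by the mean of a panel member, 10 or 11 of the 11 pairs of neighbours overlapped in their libraries, so the order between neighbours is not resolved.

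**Figure D1:**
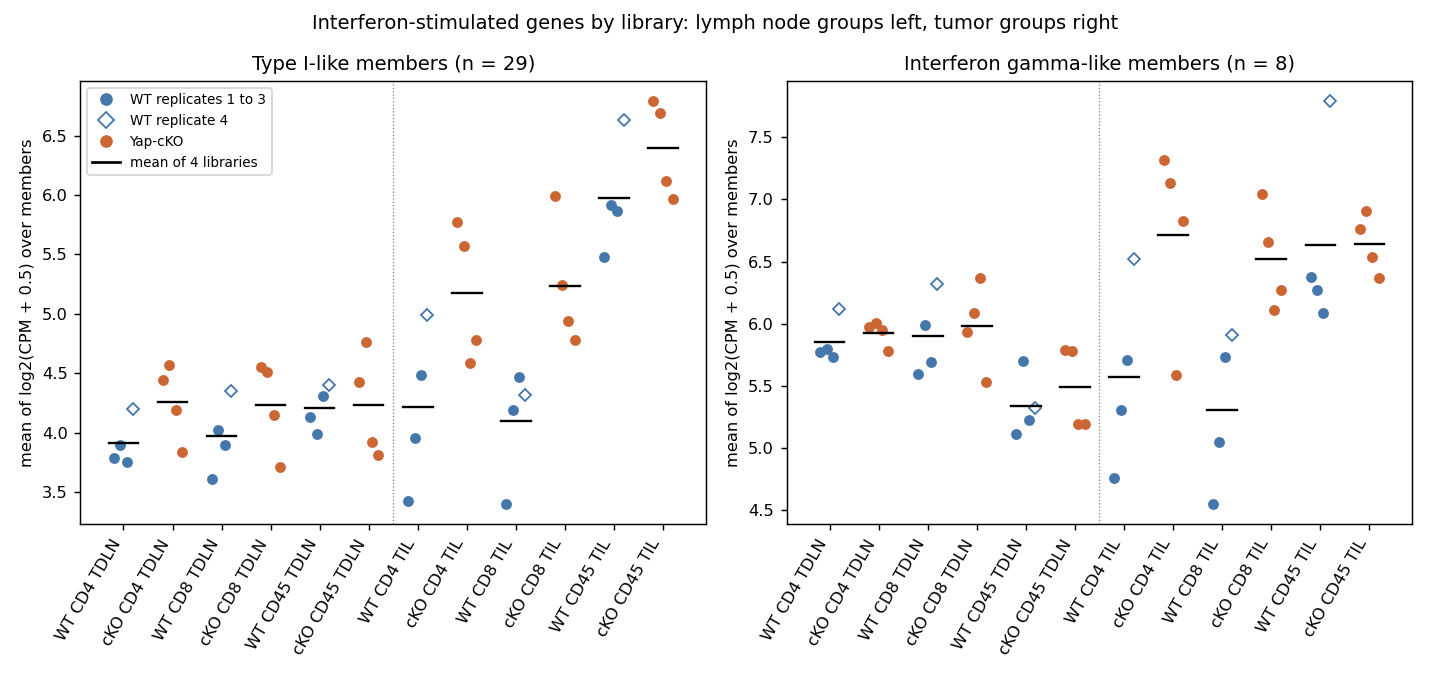
Mean of log2(CPM + 0.5) over the 29 type I-like members (one panel) and the 8 gamma-like members (the other) in each of the 48 libraries, by group, with the group mean as a line and WT replicate 4 as an open diamond. The type I-like mean was 5.98 in WT and 6.39 in Yap-cKO CD45 TILs against 3.91 to 4.26 in the TDLN groups, and WT T cell TILs spread more widely than the nodes.

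The plot of module means shows both features: CD45 TILs had the highest group means for type I-like members, with libraries at 5.48 to 6.79 that Yap-cKO CD8 TIL replicate 1 (5.99) and Yap-cKO CD4 TIL replicate 1 (5.77) and replicate 2 (5.57) also reached, and WT T cell TILs span 3.43 to 4.99 (CD4) and 3.40 to 4.47 (CD8) on that log2 scale. Single genes behaved unlike one another, as the plot of 6 panel members shows.

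**Figure D2:**
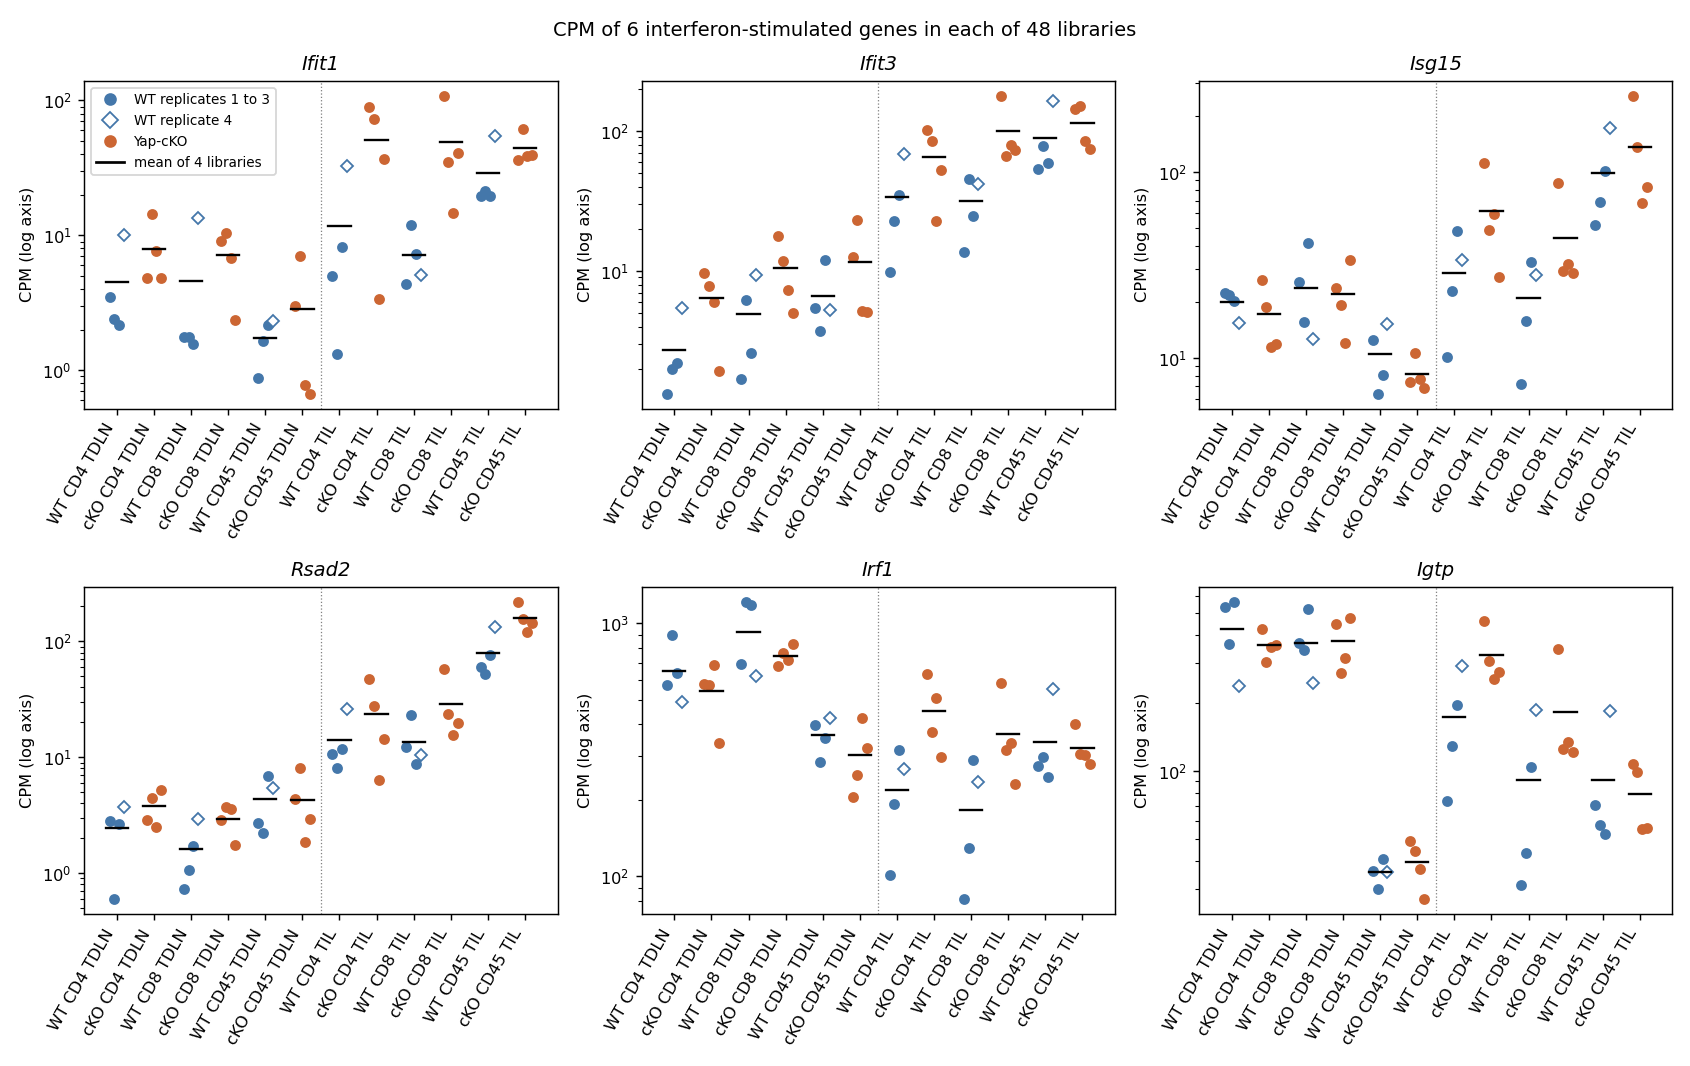
CPM on a log axis of Ifit1, Ifit3, Isg15, Rsad2, Irf1 and Igtp in each library, by group, with the group mean as a line and WT replicate 4 as an open diamond. Rsad2 was at 0.595 to 8.09 CPM in the nodes and at 52.4 to 220 in CD45 TILs, while Irf1 was at 336 to 1220 CPM in T cells of the nodes and at 81 to 633 in T cell TILs.

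The comparison of TILs with TDLNs asks how the interferon program differs between tumor and node within each cell type and genotype. In CD45 cells most members were higher in the tumor: 26 of 37 rose in WT (20 of 29 type I-like, 6 of 8 gamma-like) and 1 fell, and 23 rose in Yap-cKO (21 and 2) and 1 fell. A gene is called changed where the adjusted p of edgeR's quasi-likelihood test was below 0.05 and the log2 fold change was beyond 1 in either direction. Of all genes tested, 21.9% were called higher and 18% lower in WT, and 21.8% and 18.5% in Yap-cKO. The median log2 fold change of the members was 1.67 in WT and 1.78 in Yap-cKO, beside -0.08 and -0.09 over all genes. The lists of 26 and 23 shared 22 genes, which is 84.6% of the WT list and 95.7% of the Yap-cKO list. The same overlap over all genes was not counted. The compared cells were not of one kind, being rich in B cell RNA in the node and in myeloid RNA in the tumor (sums given above), and the part of this in the result was not tested. Without WT TIL replicate 4, 20 members rose in WT, the calls of Irf7, Gbp3, Gbp5, Gbp7, Igtp and Irgm1 being lost.

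Rsad2, Ifih1, Ifit2 and Ifit1 had values of 4.00 or more on the log2 scale in WT CD45 cells. Rsad2 (viperin), an enzyme that makes a chain-terminating nucleotide, was at 2.73, 2.24, 6.87 and 5.48 CPM in WT TDLNs and at 59.6, 52.4, 75.9 and 132 in WT TILs. Its log2 fold change was 4.17 ± 0.45 (SE; adjusted p = 7.63e-05), and 5.12 ± 0.44 in Yap-cKO (adjusted p = 3.42e-06). Ifit1, which binds viral RNA that lacks host cap methylation, was at 0.871 to 2.31 CPM in WT TDLNs and 19.6 to 54.8 in WT TILs, a log2 fold change of 4.00 ± 0.46 (adjusted p = 0.000102), and 3.85 ± 0.64 in Yap-cKO. The tumor and node libraries of both genes did not overlap. Ifit3 rose by 3.70 ± 0.48 on the log2 scale in WT and 3.21 ± 0.50 in Yap-cKO. Isg15, a ubiquitin-like modifier that is attached to other proteins, was at 12.4, 6.4, 8.02 and 15.1 CPM in WT TDLNs and at 52, 68.6, 101 and 171 in WT TILs. This was 3.19 ± 0.43 on the log2 scale, and 3.98 ± 0.42 in Yap-cKO, again with no overlap. Usp18, the protease that removes Isg15 and damps the type I receptor, rose by 2.32 ± 0.31 and 2.75 ± 0.41. Mx1 rose by 2.54 ± 0.28 and 2.94 ± 0.25. Rtp4 rose by 2.93 ± 0.32 and Ifi44 by 3.22 ± 0.34 in WT, and Oas1a, a synthetase of the messenger that activates RNase L, rose by 3.86 ± 0.37 in Yap-cKO.

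Sensors and transcription factors were divided. Ifih1 (MDA5), a sensor of long double-stranded RNA, rose in CD45 cells by 4.04 ± 0.50 on the log2 scale in WT and 4.79 ± 0.42 in Yap-cKO. Its companion Dhx58 (LGP2) rose by 1.33 and 1.59 and Zbp1, a sensor of Z-form nucleic acid, by 1.90 and 2.19. Ddx58 (RIG-I), a sensor of RNA ends, did not pass the test (-0.47 in WT). Irf7, the factor that amplifies type I interferon production, rose by 1.20 ± 0.36 in WT and 2.14 ± 0.39 in Yap-cKO, whereas Irf9 and Stat2, partners in the ISRE-binding complex, had values of -0.63 and 0.21 in WT and were not called. Irf1 was close to level (-0.13 ± 0.29 and 0.03 ± 0.23), and so was Irf8 in WT (0.29). Among the gamma-like GTPases Gbp2 made the largest step. It was at 9.64 to 11.5 CPM in WT TDLNs and at 101, 45.8, 47.5 and 455 in WT TILs (log2 fold change 3.91 ± 0.72, adjusted p = 0.00132, and 2.74 ± 0.25 in Yap-cKO). WT replicate 4 was far above the other 3 there. Gbp5 and Igtp rose in WT (1.35 and 1.32), where the same library stood apart, and without it were at 0.58 (adjusted p = 0.26) and 0.73 (0.03). In Yap-cKO their values of 0.80 and 0.94 had adjusted p of 0.00779 and 0.0147 but stayed under the fold limit. The member that fell in both genotypes was Trim34a (-1.21 ± 0.35 and -1.93 ± 0.34), whose transcripts share 48.7% of their 31-base words with Trim34b, so reads may have been split between them.

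**Figure D3:**
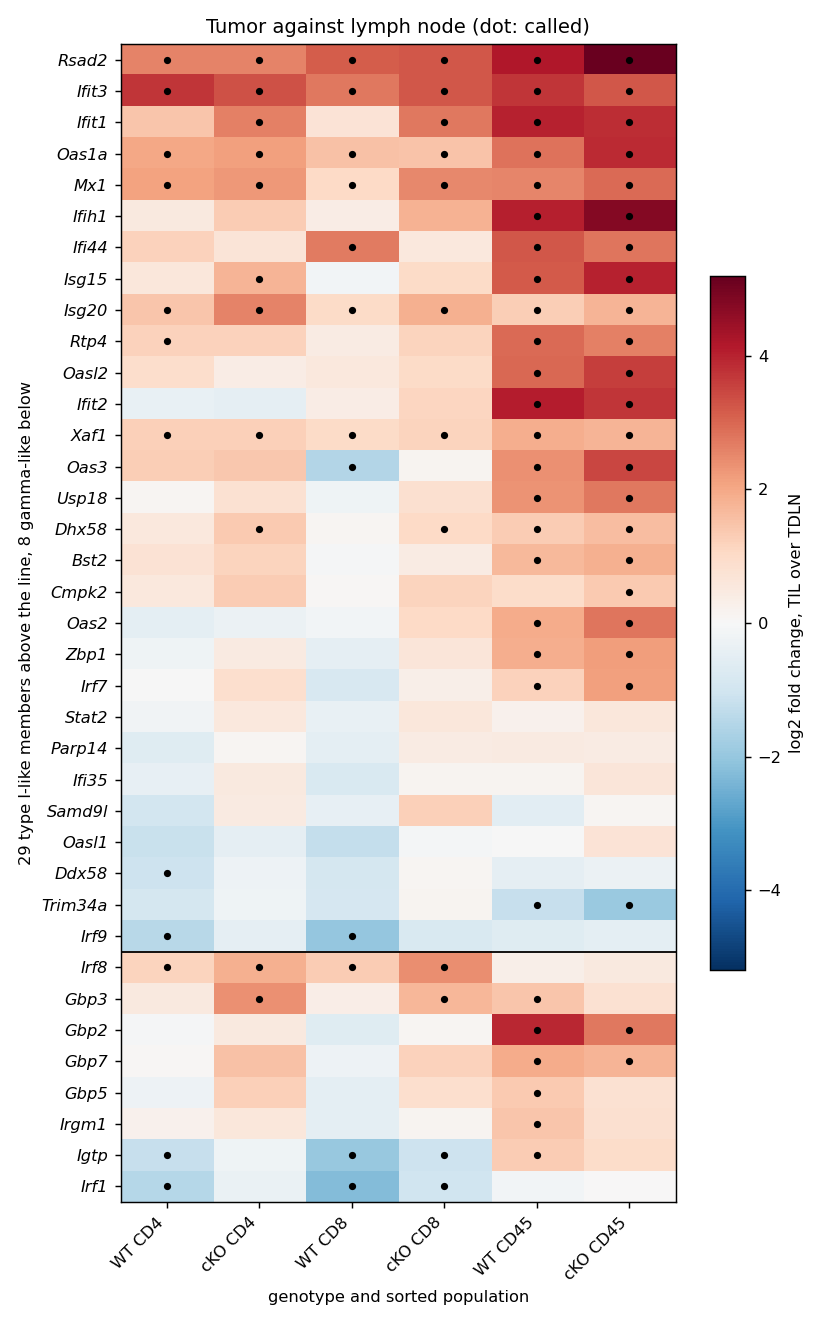
Log2 fold change of TIL over TDLN for the 37 members (lines, type I-like above the divider) in the 6 combinations of genotype and cell type (columns), with a dot where the member was called. CD45 columns are positive for most type I-like members, while Irf1, Igtp and Irf9 are negative in WT T cells; scaled to T lineage RNA, Igtp in WT CD4 was 0.11 and the other negative calls were no longer called.

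Fewer members rose from node to tumor in T cells. In WT CD4 cells 8 members rose and 4 fell (background 22.9% higher and 14.4% lower), and in WT CD8 cells 8 rose and 4 fell (22.5% and 15.2%). In Yap-cKO CD4 cells 11 rose and 0 fell (12.4% and 6.07%), and in Yap-cKO CD8 cells 10 rose and 2 fell (10.9% and 5.01%). Ifit3, Isg20, Mx1, Oas1a, Rsad2 and Xaf1 were called higher in the tumor in all 6 combinations of cell type and genotype. The share of all genes called higher in all 6 was not counted. Median log2 fold changes over the members were 0.24 in WT CD4, -0.14 in WT CD8, 0.86 in Yap-cKO CD4 and 0.99 in Yap-cKO CD8, with all-gene medians between -0.04 and 0.02. The sign of both WT medians rested on single libraries: it was -0.22 in CD4 without TIL replicate 4, and in CD8 0.11 without TDLN replicate 4 and 0.05 without TIL replicate 1. Against backgrounds of 22.9% and 22.5%, the 8 of 37 that rose in each WT T cell comparison (21.6%) are near the share of all genes.

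Ifit3 was at 1.33, 1.98, 2.21 and 5.44 CPM in WT CD4 TDLNs and at 9.76, 22.9, 34.9 and 68.5 in WT CD4 TILs (log2 fold change 3.71 ± 0.63, adjusted p = 0.000481). In WT CD8 cells it went from 1.69 to 9.36 CPM in nodes to 13.6 to 45.2 in tumors (2.75 ± 0.56, adjusted p = 0.00219). The tumor libraries were above the node libraries in both cell types, although 61.8% of the 31-base words of Ifit3 are shared, chiefly with Ifit3b. Rsad2 rose by 2.60 ± 0.56 in WT CD4 and 3.17 ± 0.53 in WT CD8, and by 2.60 ± 0.57 and 3.25 ± 0.45 in Yap-cKO. Mx1 rose by 2.10 ± 0.41 and 1.06 ± 0.34 in WT and by 2.25 ± 0.38 and 2.49 ± 0.29 in Yap-cKO. Isg20, a nuclease that degrades RNA, rose by 1.45 ± 0.30 in WT CD4 and 2.57 ± 0.37 in Yap-cKO CD4. Oas1a (1.99 ± 0.26 in WT CD4; 68.8% of its words are shared with relatives such as Oas1g) and Xaf1 (1.23 ± 0.26), a partner of an apoptosis inhibitor, completed this set. The 11 calls in Yap-cKO CD4 cells became 4 without TDLN replicate 3 and 7 without TDLN replicate 4. In contrast, Isg15 and Usp18 were at 0.61 and 0.09 in WT CD4 and -0.12 and -0.24 in WT CD8, and neither was called. Ifit1 was called in Yap-cKO T cells (2.62 ± 0.76 and 2.76 ± 0.59) and not in WT (1.45 ± 0.82 and 0.70 ± 0.71).

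Irf9, Irf1 and Igtp fell in both WT T cell types. Irf1 was at 572, 898, 639 and 487 CPM in WT CD4 TDLNs and at 101, 193, 316 and 265 in TILs (-1.48 ± 0.34, adjusted p = 0.00376). In WT CD8 cells it was at 693, 1220, 1180 and 621 in nodes and at 81, 129, 287 and 235 in tumors (-2.26 ± 0.42, adjusted p = 0.00117). Node and tumor libraries did not overlap in either. Igtp fell by 1.21 ± 0.41 in WT CD4 and 1.96 ± 0.50 in WT CD8 on the log2 scale, and Irf9 by 1.44 ± 0.29 and 1.99 ± 0.32. The fourth member to fall was Ddx58 in WT CD4 (-1.09 ± 0.38) and Oas3 in WT CD8 (-1.53 ± 0.52). In Yap-cKO CD8 cells Irf1 (-1.04 ± 0.27) and Igtp (-1.07 ± 0.34) fell, and in Yap-cKO CD4 cells their values were -0.33 and -0.22. The summed level of the T lineage genes was lower on average in the tumor libraries than in the node libraries, most of all in WT. Less T cell RNA and lower levels of these genes within T cells cannot be told apart here. Scaled to the geometric mean of the 15 T lineage genes in place of TMM, the median log2 fold change of all genes moved to 1.59 in WT CD4, 1.68 in WT CD8, 0.26 in Yap-cKO CD4 and 0.46 in Yap-cKO CD8, and the share of calls that were higher went from 61.3% to 98.5%, 59.6% to 98.8%, 67.2% to 86.2% and 68.5% to 92.7%. On that scale 23, 19, 17 and 18 members rose and 0 fell. Of all genes, 7951 of 14009, 8521 of 13894, 2451 of 13565 and 2339 of 13347 were called higher on it. The median of the members minus that of all genes was 0.03 in WT CD4 and -0.34 in WT CD8. It was 0.91 in Yap-cKO CD4 and 0.99 in Yap-cKO CD8. Irf1 was then at -0.13 in WT CD4 and -0.77 in WT CD8, Irf9 at -0.04 and -0.43, Igtp at 0.11 and -0.57, and Ddx58 in WT CD4 at 0.22, none of them called, whereas Ifit3 (3.73 to 4.82) and Rsad2 (2.89 to 4.95) were higher in all 4.

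The comparison of Yap-cKO with WT asks what loss of Yap in T cells does to each population. In CD8 TILs 10 of the 37 members rose and 0 fell: Trim34a, Mx1, Ifit1, Gbp5, Parp14, Gbp3, Ddx58, Ifit3, Ifih1 and Gbp7. These were 7 of 29 type I-like and 3 of 8 gamma-like members, or 27.0% of the list, beside 3.03% of all genes called higher. In 36 of 37 the fitted log2 fold change was positive, with a median of 1.13 beside 0.08 over all genes. An unadjusted p below 0.05 was found in 28 members and in 4792 of all 14121 genes. In 14 members every Yap-cKO library was above every WT library (10.7% of all genes). The makeup of the libraries differed between the genotypes as well. T lineage markers were higher and melanoma markers lower in Yap-cKO CD8 TILs, as given above. A list of 8 myeloid genes summed to 613 to 1610 CPM in Yap-cKO and 250 to 568 in WT. With a covariate for the melanoma, endothelial and fibroblast markers 0 members were called and the median was -0.32. The melanoma sums did not overlap between genotypes, so this fit can hardly separate that covariate from genotype, and no conclusion is drawn from it. With a covariate for Y-linked RNA 0 were called and the median was 0.91. The number of calls fell to 0 without Yap-cKO replicate 2, to 2 without WT replicate 1, to 3 without WT replicate 2 or WT replicate 4, and to 5 without Yap-cKO replicate 1 or replicate 4.

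**Figure D4:**
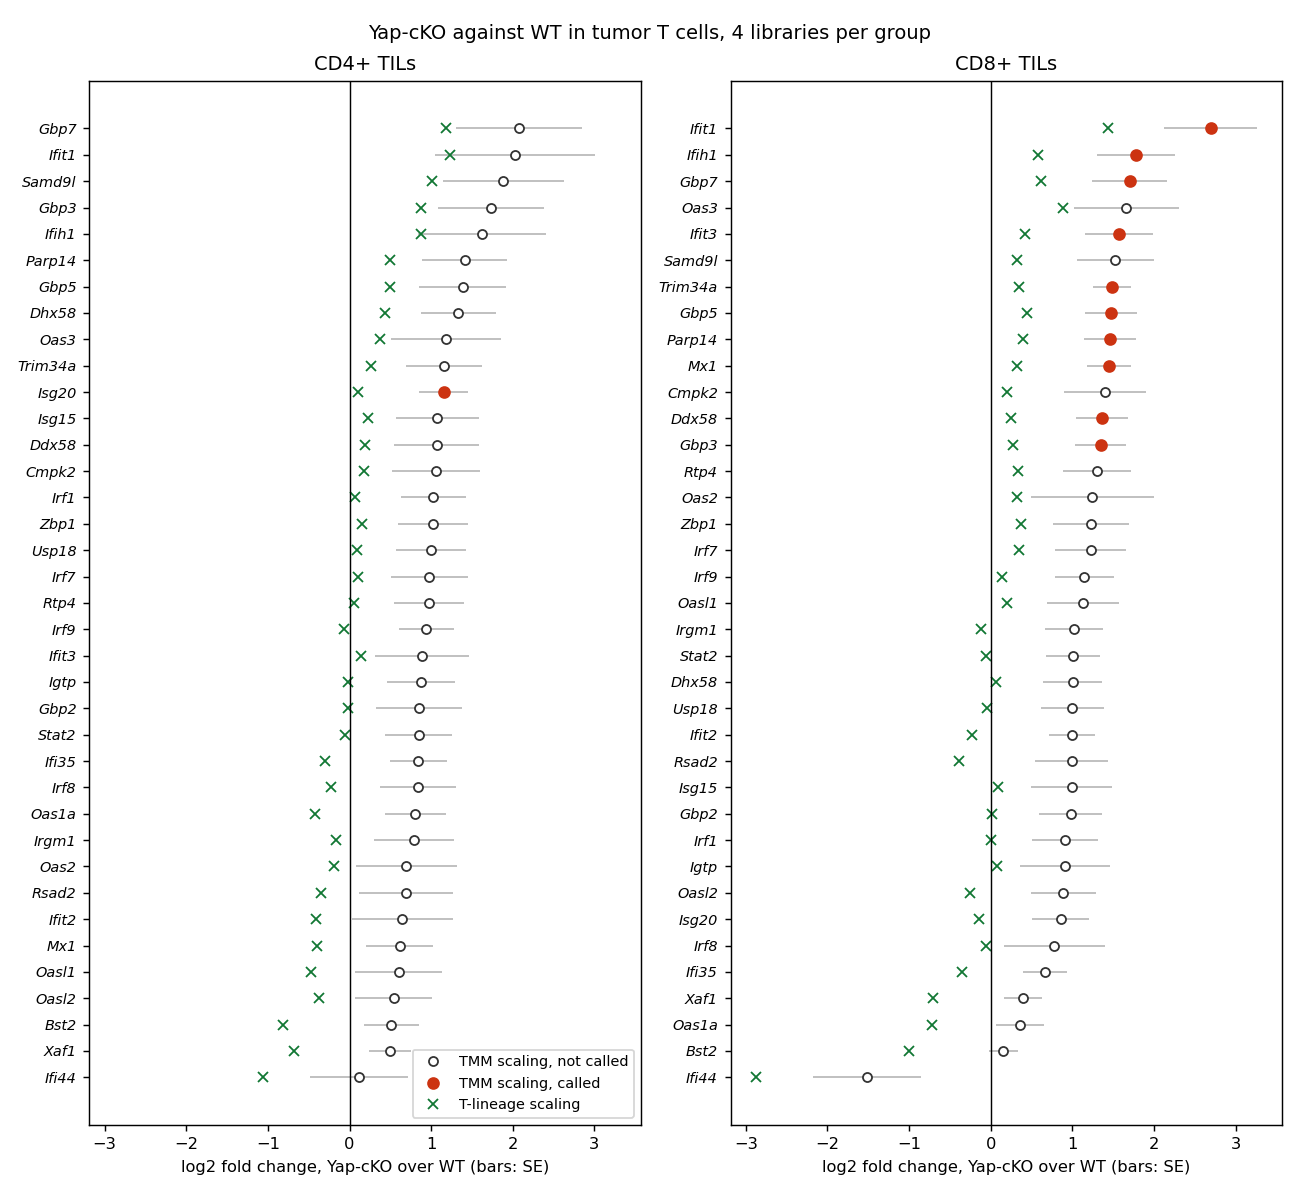
Log2 fold change of Yap-cKO over WT (± SE) for the 37 members in CD4 TILs and in CD8 TILs, filled red where called, with the value after scaling to T lineage RNA as a green cross. With TMM 37 of 37 and 36 of 37 values are positive, and with T lineage scaling 20 and 23 are, the crosses lying around 0.

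Ifit1 was at 4.36, 12, 7.26 and 5.06 CPM in WT CD8 TILs and at 108, 34.8, 14.6 and 40.9 in Yap-cKO (log2 fold change 2.69 ± 0.57, adjusted p = 0.0207). Mx1 was at 10.5, 10.4, 14.1 and 15.1 CPM in WT and at 52.7, 29, 28.9 and 34.6 in Yap-cKO (1.45 ± 0.27, adjusted p = 0.0183). In both genes the lowest Yap-cKO library was above the highest WT library. Trim34a, of the TRIM family of ubiquitin ligases, was at 13.6 to 19.1 CPM in WT and 40.4 to 67.9 in Yap-cKO (1.48 ± 0.24, adjusted p = 0.018). Parp14, an ADP-ribosyltransferase, was at 13.9 to 36.8 CPM in WT and 52.2 to 106 in Yap-cKO (1.46 ± 0.32), and Gbp5, a guanylate-binding protein linked to inflammasome assembly, at 5.34 to 10.1 and 14.5 to 26.1 (1.48 ± 0.32, adjusted p = 0.0218 for both). Gbp3 was at 11.5 to 26.5 CPM in WT and 35.4 to 81.7 in Yap-cKO (1.34 ± 0.31, adjusted p = 0.0257). These 4 did not overlap either. The RNA sensors Ddx58 (1.36 ± 0.32) and Ifih1 (1.77 ± 0.48) rose together with Ifit3 (1.57 ± 0.42, adjusted p = 0.0376). Gbp7 rose by 1.70 ± 0.46 with overlapping libraries, from 18.8 to 41.5 CPM in WT to 135, 94.7, 25.9 and 107 in Yap-cKO.

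The panel members that were not called had smaller or less even differences in CD8 TILs. Isg15 was at 7.24, 15.8, 32.5 and 27.9 CPM in WT and at 86.6, 29.4, 31.8 and 28.6 in Yap-cKO (0.99 ± 0.49, adjusted p = 0.181). Replicate 1 of Yap-cKO stood above the rest and the other 3 lay among the WT libraries. Rsad2 (0.99 ± 0.45, adjusted p = 0.149), Usp18 (1.00 ± 0.38, 0.0981), Irf7 (1.22 ± 0.43, 0.0809), Irf1 (0.91 ± 0.40, 0.14), Gbp2 (0.98 ± 0.38, 0.106) and Igtp (0.91 ± 0.55, 0.264) also overlapped between genotypes. Ifi44 was the member with a negative value (-1.51 ± 0.66, adjusted p = 0.137). Bst2 (tetherin), which holds budding virus at the cell surface, was the closest to 0 at 0.15 ± 0.18. Ifi44 and Bst2 were singled out after their values were seen.

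In CD4 TILs 1 member was called, Isg20, and 0 fell, beside 1.36% of all genes called higher. Isg20 was at 28.4, 32.9, 56 and 50.8 CPM in WT and at 94.7, 101, 83.4 and 99.1 in Yap-cKO, with no overlap (1.15 ± 0.30, adjusted p = 0.0394). All 37 fitted values were positive, with a median of 0.97 beside 0.14 over all genes. An unadjusted p below 0.05 was found in 14 members and in 3482 of all 14205 genes. With the covariate for melanoma, endothelial and fibroblast markers the median was -1.54, with 11 members lower and 1 (Bst2) higher. The melanoma sums did not overlap between genotypes here either, so this fit can hardly separate that covariate from genotype, and no conclusion is drawn from it. With the covariate for Y-linked RNA the median was 0.47, with 0 calls. In 4 members (Isg20, Dhx58, Irf9 and Xaf1) the genotypes did not overlap in the higher direction, as in 6.19% of all genes. Several larger differences were carried by 3 of 4 Yap-cKO libraries. Gbp7 was at 19.2, 12.3, 26.6 and 69.9 CPM in WT and at 159, 239, 11.2 and 154 in Yap-cKO (2.08 ± 0.77, adjusted p = 0.127). Ifit1 was at 5.02, 1.31, 8.13 and 32.6 CPM in WT and at 89.2, 72.9, 3.37 and 36.5 in Yap-cKO (2.02 ± 0.98, adjusted p = 0.228). Replicate 3 of Yap-cKO was among the lowest of the 8 libraries in both, and WT replicate 4 the highest of WT. Other panel members had values of 1.39 ± 0.54 (Gbp5), 1.07 ± 0.51 (Isg15), 1.03 ± 0.40 (Irf1), 1.00 ± 0.43 (Usp18), 0.98 ± 0.47 (Irf7), 0.89 ± 0.58 (Ifit3), 0.88 ± 0.42 (Igtp), 0.85 ± 0.53 (Gbp2) and 0.69 ± 0.57 (Rsad2). Their adjusted p ranged from 0.141 to 0.469. Without Yap-cKO replicate 3 the number of calls was 9, without WT replicate 3 it was 1, and without any single one of the other 6 libraries it was 0.

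The counts in T cell TILs depended on the scaling. Scaled to T lineage RNA, 0 members rose and 0 fell in CD4 TILs, with 20 positive and 17 negative values. In CD8 TILs 0 rose and 1 fell (Ifi44, -2.88, adjusted p = 0.0183), with 23 positive and 14 negative. The median over all genes was then -1.11 in CD4 and -1.12 in CD8, and the share of all calls that were higher went from 16.9% to 0.536% and from 24.9% to 0.107%. The median of the members was 0.07 and 0.13, or 1.18 and 1.25 above that of all genes, beside 0.83 and 1.06 with TMM. In CD8 TILs Ifit1 was at 1.44 on this scale, Gbp7 at 0.61, Ifih1 at 0.58, Gbp5 at 0.44, Ifit3 at 0.42, Mx1 at 0.33 and Isg15 at 0.09, while Usp18 (-0.04), Ifit2 (-0.23) and Rsad2 (-0.39) turned negative. In CD4 TILs Isg20 was at 0.10, and Gbp2 (-0.02), Igtp (-0.02) and Rsad2 (-0.34) turned negative. WT replicate 4, the WT library without Y-linked RNA, bore on CD4 and CD45 TILs most. It was above the other 3 WT libraries in 28 of 37 members in CD4 TILs, 12 in CD8 TILs and 33 in CD45 TILs, and below every Yap-cKO library in 6, 21 and 1. The median log2 ratio of the Yap-cKO mean to WT replicate 4 was 0.42 in CD4, 0.86 in CD8 and -0.23 in CD45 TILs, and to the mean of the other 3 WT libraries 1.28, 1.39 and 0.62. These values are from WT libraries of unequal number and are not a test.

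In the other 4 populations edgeR called 0 members, and so did DESeq2. In CD45 TILs (background 0.991%) 28 values were positive and 9 negative, with a median of 0.33. An unadjusted p below 0.05 was found in 3 members and in 2425 of all 13628 genes. The median was 0.04 without Yap-cKO replicate 1, 0.62 without WT replicate 4 and -0.12 with the covariate for Y-linked RNA. B cell markers summed to 190 to 772 CPM in Yap-cKO and 796 to 1630 in WT, and melanoma markers to 329 to 936 and 1420 to 2260, and their part was not tested. The type I-like median was 0.45, with 26 of 29 positive, and the gamma-like median was -0.15, with 6 of 8 negative. Rsad2 came closest, at 59.6, 52.4, 75.9 and 132 CPM in WT and 220, 156, 120 and 143 in Yap-cKO (0.99 ± 0.30, adjusted p = 0.135). Gbp2 had the most negative panel value (-0.89 ± 0.65, adjusted p = 0.489), at 101, 45.8, 47.5 and 455 CPM in WT and 108, 101, 78 and 65.7 in Yap-cKO, and its value was 0.45 without WT replicate 4. In TDLNs the medians were 0.37 in CD4 (background 0.0462%, 3 members with an unadjusted p below 0.05), 0.09 in CD8 (0.0158%, 0 members, Ifi44 not tested) and 0.10 in CD45 (0.0596%, 0 members). Of all genes, 228 of 12992, 120 of 12651 and 391 of 13432 had an unadjusted p below 0.05. The largest panel value in the nodes was Ifit3 in CD4 cells, at 1.33 to 5.44 CPM in WT and 9.71, 7.83, 5.99 and 1.92 in Yap-cKO (1.22 ± 0.53, adjusted p = 0.97).

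Whether the step from node to tumor differed between genotypes was tested by the interaction of tissue and genotype. By edgeR 0 of 37 members were called in CD4, CD8 and CD45 cells (background 1.36%, 0.422% and 0%). At an unadjusted p below 0.05 were 6, 6 and 0 members. Of all genes, 2239 of 15087, 2333 of 14937 and 1246 of 14871 were. DESeq2 called 0, 1 and 0, the one being Mx1 in CD8 cells (1.35, adjusted p = 0.0227; by edgeR 1.41, adjusted p = 0.105). The median interaction was 0.81 in CD4, 1.01 in CD8 and 0.19 in CD45 cells on the log2 scale, which is the extra step of Yap-cKO over WT. Calls made in one genotype and not in the other, such as Ifit1 in T cells, are therefore not shown to differ between genotypes.

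Few members were called between CD8 and CD4 T cells of the same origin. In WT TDLNs 1 member was called (background 3.76%): Oas3, a synthetase for long double-stranded RNA, was at 6.12, 14, 5.6 and 12.3 CPM in CD4 and 30, 54.9, 46.5 and 35 in CD8 (2.15 ± 0.35, adjusted p = 0.00667), with no overlap. CD4 and CD8 libraries with the same number deviated together there, and with the number as a block Oas3 (2.21, adjusted p = 0.000692), Mx1 (1.12, 0.0439) and Ifit2 (-1.42, 0.0305) were called. In WT TILs 0 members were called by edgeR and by DESeq2 (background 0.119%). At an unadjusted p below 0.05 were 1 member and 541 of all 14266 genes. In Yap-cKO TILs 2 members and 1435 of all 13902 genes had an unadjusted p below 0.05. There edgeR called 0 members (background 2.49%), while DESeq2 and the blocked fit called 1. The blocked call was Isg20, lower in CD8 at 56.6, 44.9, 29.3 and 31.7 CPM than in CD4 (-1.25, adjusted p = 0.0206, and -1.21, 0.0527 without the block). In Yap-cKO TDLNs 0 were called by either tool (background 2.49%), and 5 members and 1463 of all 12954 genes had an unadjusted p below 0.05. The blocked fit called Oas3 there (1.41, adjusted p = 0.0144), though same-numbered libraries did not all deviate together.

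The genes upstream of the members were followed in lists of ligands, receptors, signalling genes and sensors. Of 21 interferon genes, Ifng was tested in each T cell comparison, and Ifnz in WT CD8 cells between tissues (-0.65, adjusted p = 0.41). Ifng was at 0.64 to 9.67 CPM in the libraries of the nodes, 3.4 to 45.6 in WT and 15.8 to 58.7 in Yap-cKO CD4 TILs, and 9.89 to 175 and 46.6 to 124 in CD8 TILs. TIL over TDLN it rose in WT CD4 (3.11 ± 0.63), WT CD8 (4.54 ± 0.74), Yap-cKO CD4 (3.95 ± 0.56) and Yap-cKO CD8 cells (4.48 ± 0.49), and still did with T lineage scaling (4.22 to 5.96). It was not called between genotypes. Ifnb1, a type I interferon, had 0 to 3 counts in every node and T cell library and 0.392 to 1.88 CPM in WT and 0.589 to 2.9 CPM in Yap-cKO CD45 TILs.

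Receptor genes did not move as a group. Ifngr2, the signalling chain for interferon gamma, fell from node to tumor in T cells of both genotypes, by 1.90 and 1.41 in WT CD4 and CD8 and by 2.67 and 2.38 in Yap-cKO. With T lineage scaling the call held in Yap-cKO (-2.42 and -1.92) and not in WT, where CD8 turned to 0.36. Ifnar1 fell in WT T cells (-1.33 and -1.39), and with T lineage scaling its values were 0.05 and 0.19. Il10rb, a chain shared by the receptors of interferon lambda and interleukin 10, rose in WT CD4 cells (1.20), and with T lineage scaling in all 4 T cell comparisons (1.20 to 2.92). In CD45 cells Ifnar2 rose (1.36 and 1.45). Of 15 signalling genes, 1 rose and 5 fell in WT CD4, 1 rose and 8 fell in WT CD8, 1 rose and 1 fell in Yap-cKO CD4, and 1 rose and 2 fell in Yap-cKO CD8, beside all-gene shares of 22.9% and 14.4%, 22.5% and 15.2%, 12.4% and 6.07%, and 10.9% and 5.01%. With T lineage scaling these counts were 4 and 1, 3 and 0, 2 and 1, and 1 and 1. All genes called higher and lower on that scale were 7951 and 117 of 14009, 8521 and 103 of 13894, 2451 and 393 of 13565, and 2339 and 183 of 13347. The gene that rose was Irf5 (2.14 to 3.31, and 3.48 to 3.86 with T lineage scaling), a factor best known from myeloid and B cells. Jak1 (-1.39) and Tyk2 (-1.14), kinases bound to the receptors, fell in WT CD8 cells, and with T lineage scaling were at 0.08 and 0.39. Among nucleic acid sensors and adaptors, 5 of 11 rose in CD45 TILs of both genotypes (Cgas, Ikbke, Myd88, Tlr3 and Tlr7) and Trim25 fell. The all-gene shares there were 21.9% higher and 18% lower in WT, and 21.8% and 18.5% in Yap-cKO.

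Between genotypes 3 upstream genes were called, all in CD8 TILs: Jak1 (1.33 ± 0.33, adjusted p = 0.0293), Jak2 (1.54 ± 0.37, 0.0273) and Tlr7 (2.26 ± 0.51, 0.0235) were called higher in Yap-cKO, and none of the 3 with T lineage scaling (0.26, 0.28 and 1.14). On that scale other upstream genes were called lower in Yap-cKO: Ifngr2 (-2.07 in CD4 and -2.0 in CD8 TILs), Il10rb (-1.62 and -1.24), Tlr3 (-3.11 and -3.59) and Ticam1 (-1.40 in CD8 TILs). Of all genes, 3152 of 14205 in CD4 and 5591 of 14121 in CD8 TILs were called lower on it. A further 39 type I-like genes, such as Ifi44l, Mx2 and Eif2ak2, and 28 gamma-like genes, such as Cxcl9, Tap1 and Psmb8, were counted in the same way. In CD8 TILs 11 of 38 and 5 of 26 tested rose in Yap-cKO, beside 3.03% of all genes, and 0 in the other 5 populations. With T lineage scaling 0 of 38 rose and 3 fell, and 1 of 26 rose and 2 fell, while 6 of all 14121 genes rose and 5591 fell. From node to tumor 17 of 38 type I-like genes rose and 3 fell in WT CD45 cells and 16 rose and 2 fell in Yap-cKO (all-gene shares 21.9% and 18%, 21.8% and 18.5%). In WT T cells 5 rose and 4 fell in CD4 and 5 rose and 8 fell in CD8 (all-gene shares 22.9% and 14.4%, 22.5% and 15.2%). With T lineage scaling 19 and 18 rose and 0 fell, beside 7951 of 14009 and 8521 of 13894 of all genes called higher on that scale. Of the gamma-like genes 9 of 26 rose and 1 fell in WT CD45 cells, and 13 of 28 rose and 1 fell in Yap-cKO. In WT CD4 cells 1 of 27 rose and 2 fell, and in WT CD8 cells 2 of 26 rose and 10 fell. With T lineage scaling 11 and 6 rose and 0 fell. In Yap-cKO CD4 and CD8 cells 6 of 37 and 9 of 38 type I-like genes rose and 0 fell. There 2 and 1 of 25 gamma-like genes rose, and 0 and 1 fell (all-gene shares 12.4% and 6.07%, 10.9% and 5.01%).

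The members also varied from library to library within groups. Over the 48 libraries, as deviations of log2(CPM + 0.5) from the group means, the median Pearson r was 0.512 over the 406 pairs of type I-like members, 0.452 over the 28 gamma-like pairs and 0.436 over the 232 mixed pairs, and 84.7% of pairs were positive. These are descriptions, since libraries share depth, makeup and handling. Within sets of 8 libraries of one cell type and tissue, the type I-like median was 0.642 in CD4, 0.702 in CD8 and 0.724 in CD45 TILs and 0.242, 0.386 and 0.411 in the nodes. The gamma-like median in CD8 TDLNs was -0.238.

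The shared variation had a pair of poles, described here after the values were seen. Gbp7 went with Samd9l (r = 0.938), Ifit2 (0.893), Ifih1 (0.879), Parp14 (0.875) and Ifit1 (0.842). Isg15 went with Irf7 (0.876), Irf9 (0.868) and Zbp1 (0.816), and Gbp7 and Isg15 had an r of -0.142 with each other. The place of a member between these poles followed the base composition of its longest transcript. Over the other 35 members, Spearman's rho was -0.863 between GC content and the difference of a member's r with Gbp7 and its r with Isg15, and 0.496 between transcript length and that difference. GC content was 38.8% in Samd9l, 41.7% in Gbp7, 42.8% in Ifih1 and 43.3% in Ifit1, against 52.8% in Isg15 and 55.4% in Irf7.

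**Figure D5:**
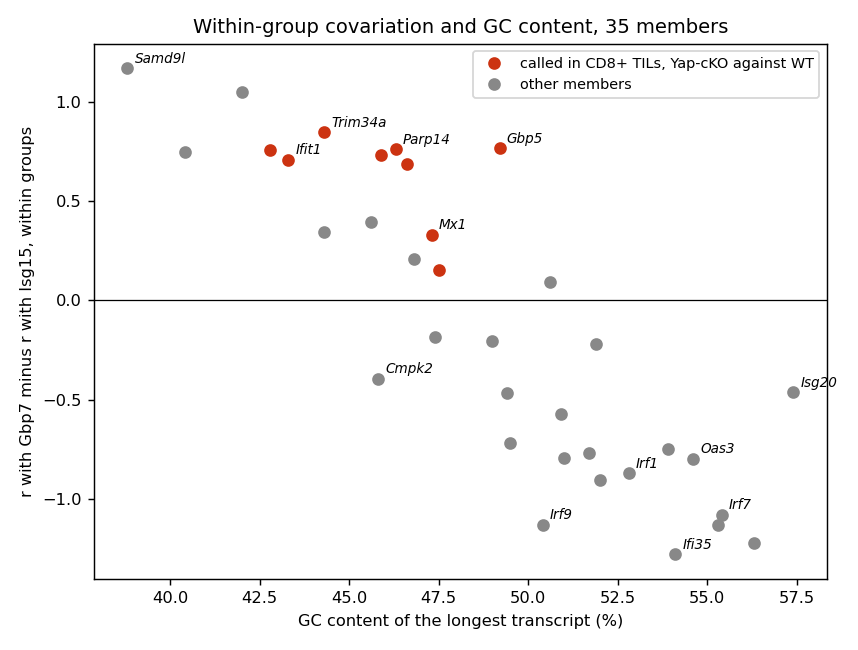
GC content of the longest transcript (x, percent) against the difference between a member's within-group r with Gbp7 and its r with Isg15 (y) for 35 members over 48 libraries, with members called in CD8 TILs between genotypes in red. The points fall from upper left to lower right (Spearman's rho = -0.863), and the red points lie at 42.8% to 49.2% GC.

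The plot of GC content places the calls of the CD8 TIL comparison on the low GC side: the 10 called members had a median GC content of 46.1% (41.7% to 49.2%), against 50.9% (38.8% to 57.4%) in the 27 others. Over the members, rho between GC content and the log2 fold change of Yap-cKO over WT was -0.41 in CD8 TILs, beside -0.159 over all genes tested, and -0.179 in CD4 TILs, beside -0.0881. In TDLNs it was -0.523, -0.494 and -0.757 in CD4, CD8 and CD45 cells, beside -0.461, -0.536 and -0.488 over all genes. With an offset for GC content in each library, chosen after the data were seen, 13 members rose in CD8 TILs in place of 10 and Isg20 was again the single call in CD4 TILs (1.19, adjusted p = 0.0365). The part of base composition in the within-group variation was not tested.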

How the data were processed

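Sorted cells went into TRIzol, and libraries were made with the SMART-Seq v4 Ultra Low Input kit, which amplifies cDNA and keeps neither strand nor molecular identifiers. Per the labels, the authors ran FastQC, Trimmomatic and Salmon 0.9.1 with build mm10, and deposited for each transcript an expected count, a TPM value and an effective length. From these files 111787 of 112092 transcripts were matched to GENCODE M21 on GRCm38, and counts and TPM were summed per gene; unmatched transcripts held 0.0488% to 0.18% of counts. Rounded gene counts were tested with edgeR 4.0.16 (quasi-likelihood, TMM, Benjamini-Hochberg adjustment over all genes tested) in R 4.3.3, in genes with 10 counts in at least 4 libraries of the comparison, with the 8 libraries of the groups compared in each fit and 16 in an interaction. Alternatives were DESeq2 1.42.0, no filter, length and GC content offsets, T lineage scaling, covariates, a replicate block and leaving out each library. Tables were made with numpy 2.4.6, pandas 2.3.3 and scipy 1.17.1, and scripts were tested on simulated data. The 72 pairs of libraries within groups all differed beyond counting noise. Same-numbered libraries deviated together (every r above 0.1) between CD4 and CD8 of WT TDLNs, WT TILs and Yap-cKO TILs, and not between the genotypes or tissues. Members and gene lists were chosen with earlier results of these data known. Named with values were Ifit1, Ifit3, Isg15, Usp18, Irf7, Rsad2, Irf1, Gbp2, Gbp5 and Igtp, plus up to 6 called members with the smallest adjusted p in each comparison. Any other member named was singled out after its values were seen.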

Additional observations from a re-analysis of the deposited data

Results flagged for a closer look

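Dixon's criterion was applied to 144 sets of 4 libraries (10 members and the 2 group means of log2 levels, in 12 groups), and in 11 of them 1 library stood apart from the other 3, where chance gives about 1 in 20. All 11 were high libraries, and 9 came from 2 libraries. Single members were taken as CPM and not as logs, a scale that sets high values further apart than low ones. Members of a library also vary together, so the sets are not independent. WT CD45 TIL replicate 4, the WT library without Y-linked RNA, was at 54.8 CPM for Ifit1 (others 19.6 to 21.2), 548 for Irf1 (248 to 295), 455 for Gbp2 (45.8 to 101), 59.4 for Gbp5 (11.9 to 17.7) and 185 for Igtp (52.2 to 70.6). Gamma-like members were 4 of these 5. Yap-cKO CD8 TIL replicate 1 was at 178 CPM for Ifit3 (others 66.7 to 78.8), 86.6 for Isg15 (28.6 to 31.8), 126 for Gbp2 (61.1 to 67.5) and 347 for Igtp (121 to 134). The remaining 2 were Ifit1 in WT CD8 TDLN replicate 4, at 13.4 CPM (others 1.57 to 1.76), and in Yap-cKO CD45 TIL replicate 2, at 61.8 CPM (others 36.4 to 39.6).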

How the results depend on the processing

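Numbers of members called were recomputed under each alternative, and the cause of a change was not tested. Between genotypes in CD4 TILs (1 call), DESeq2 called 6, and the fits without a count filter, with the replicate block, with T lineage scaling and with a Y-linked covariate called 0. With a covariate for melanoma, endothelial and fibroblast markers 12 were called, 1 higher and 11 lower. In CD8 TILs (10 calls), DESeq2 called 18, T lineage scaling 1, and the block and either covariate 0; without a filter and with GC offsets 13 were called, and with length offsets 9. T lineage scaling called 23 in WT CD4 (12 calls), 19 in WT CD8 (12) and 17 in Yap-cKO CD4 (11) from node to tumor, and turned Igtp in WT CD4 to 0.11. Of all genes, 7951 of 14009, 8521 of 13894 and 2451 of 13565 were called higher in these comparisons with that scaling. The interaction in CD8 gave 1 call with DESeq2. CD8 against CD4 gave 2 calls with DESeq2 and 3 with the block in WT TDLNs (1 call), 1 and 1 in Yap-cKO TILs (0) and 1 with the block in Yap-cKO TDLNs (0). Leaving out 1 library gave 0 to 9 calls in CD4 TILs and 0 to 12 in CD8 TILs between genotypes, and 0 to 0 in CD45 TILs and the 3 TDLN populations. From node to tumor it gave 10 to 13 (WT CD4), 8 to 15 (WT CD8), 21 to 27 (WT CD45), 4 to 16 (Yap-cKO CD4), 8 to 15 (Yap-cKO CD8) and 24 to 27 (Yap-cKO CD45). The interaction gave 0 to 1 in CD4 (1 without Yap-cKO CD4 TIL replicate 3) and 0 to 0 in CD8 and CD45. CD8 against CD4 gave 0 to 0 in WT TILs, 1 to 3 in WT TDLNs (3 without WT CD8 TDLN replicate 4), 0 to 1 in Yap-cKO TILs and 0 to 0 in Yap-cKO TDLNs. Of 80 values of single named members, 80 kept their call with DESeq2, 77 without a filter, 76 with length offsets and 66 with the block. T lineage scaling, applied to T cells, left 32 the same, 18 no longer called and 1 reversed, and either covariate left 10 no longer called. Melanoma sums did not overlap between genotypes in T cell TILs, so a call lost or turned with the marker covariate does not show a weaker or opposite effect. Same-numbered libraries of the 2 genotypes or tissues did not all deviate together, so a call lost under that block does not show a weaker effect.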
